A study of Mus musculus with 36 samples.

Results

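The mitochondrial respiratory chain genes were followed across 36 kidney cortex RNA-seq libraries. Members were taken by gene symbol: the Nduf subunits of complex I, Sdha to Sdhd of complex II, the Uqcr genes and Cyc1 of complex III, Cycs (cytochrome c), the Cox4 to Cox8 subunits of complex IV, the Atp5 genes of complex V, and the mRNAs encoded in mitochondrial DNA. This gave 88 genes of the 15730 in the count table, 81 nuclear and 7 mitochondrially encoded, and all 88 had enough counts to be tested. By symbol, the nuclear genes comprised 36 of complex I, 4 of complex II, 9 of complex III, 14 of complex IV, 17 of complex V and Cycs. A symbol does not always mark a subunit: Ndufa4 is now placed with complex IV, Cox7a2l is a supercomplex factor, and the protein of Atp5sl assists complex I assembly. The mitochondrial members were mt-Nd1, mt-Nd2, mt-Nd4, mt-Nd5 and mt-Nd6 of complex I, mt-Cytb of complex III and mt-Co1 of complex IV, while Cox4i1, Cox4i2 and the other mitochondrial mRNAs were not analysed here.

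All mice were male ApoE−/− animals on a C57BL/6 background, so the loss of apolipoprotein E was common to diabetic and nondiabetic groups. Diabetes had been induced by intraperitoneal streptozotocin, a toxin of pancreatic beta cells, from 6 weeks of age with 5 daily doses of 55 mg/kg, and no sham injection of the nondiabetic mice is described. Each state was split over 3 treatments given intraperitoneally 2 times a week, with 6 libraries in each of the 6 groups: 0.1% ethanol as vehicle, 5 µg/kg of LXA4 (lipoxin A4, a lipid that helps to end inflammation), or 1.7 µg/kg of benzo-LXA4, a synthetic analog. The treatment text places dosing at weeks 10 to 16 for an intervention design, without saying that these libraries belong to it. Replicates are numbered but not stated to be separate mice, so p-values measure the spread between these libraries, which may be technical.

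The respiratory chain passes electrons from NADH (complex I) and succinate (complex II) through ubiquinone, complex III, cytochrome c and complex IV to oxygen, and ATP synthase (complex V) uses the resulting proton gradient. Nearly all subunits are encoded in the nucleus, transcribed one by one and imported, while a small core of hydrophobic subunits is transcribed from both strands of mitochondrial DNA as long precursors that are cut at tRNA sequences. In kidney cortex the proximal tubule is rich in mitochondria and depends on oxidative metabolism for reabsorption.

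The libraries held 8896193 to 43305005 counts. Markers of cortex were abundant: 12 proximal tubule genes summed to between 10567 and 28954 CPM (read counts of a gene per megaread of the scaled library total). The lowest of these sums was in diabetic LXA4 replicate 6. The 5 podocyte genes summed to between 205 and 349 CPM. A pair of libraries stood apart. Genes of ribosomal and small structural RNA took 17.7% of the counts in nondiabetic vehicle replicate 3 and 56.9% in diabetic LXA4 replicate 6, against at most 6.81% in the other 34. Results below are given with all libraries, and the main ones also without these 2.

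Many nuclear members carry sequences in their promoters that fit the recognition motifs of NRF1, of ETS factors such as GABP, of YY1 and of the estrogen-related receptors, regulators known for their part in mitochondrial gene expression. Windows of 300 bases (250 before to 50 after the start) from RefSeq on GRCm38.p6 were matched for 68 of the 81 nuclear members, 3 of them through a synonym, and searched on both strands. A gene was counted when the window of any of its listed starts held the motif. The NRF1 motif (GCGCA and GCGC with any 1 base between them) was found in 25.0% of the matched members. It was found in 5.19% of all 27025 genes with a promoter window and 10.22% of those in the count table. The ETS motif CCGGAAG was found in 23.53%, 9.93% and 17.8%, the YY1 motif AANATGGC in 26.47%, 6.96% and 9.01%, and the ERR motif AAGGTCA in 11.76%, 5.38% and 4.29%. Stretches of 60 bases around the NRF1 match of 4 members, genes that were lower in diabetic mice, are shown as examples of the sequence, with the match in capitals, 5′ to 3′ on the strand of the gene. They are Sdhd, a membrane anchor of complex II (chr9:50603894-50603953, minus strand), Ndufa11 of the complex I membrane arm (chr17:56717677-56717736, plus strand), Ndufs6 of the complex I matrix arm (chr13:73328483-73328542, minus strand) and Atp5c1, the gamma subunit of ATP synthase (chr2:10080433-10080492, minus strand).
Sdhd: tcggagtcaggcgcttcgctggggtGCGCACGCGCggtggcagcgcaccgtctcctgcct
Ndufa11: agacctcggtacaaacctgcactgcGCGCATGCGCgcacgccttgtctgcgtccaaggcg
Ndufs6: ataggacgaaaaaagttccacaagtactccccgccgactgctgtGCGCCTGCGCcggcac
Atp5c1: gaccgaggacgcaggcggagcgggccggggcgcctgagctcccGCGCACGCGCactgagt
Averaged over treatments, the diabetic mice differed by a log2 value of -0.22 for Sdhd, -0.19 for Ndufa11, -0.25 for Ndufs6 and -0.18 for Atp5c1 (edgeR adjusted p = 0.00225, 0.0214, 0.00155 and 0.0404). These 4 were chosen after their values were seen, and 10 of the 17 members with an NRF1 match were called lower. The call of Atp5c1 held in 19 of 36 edgeR fits that left out 1 library each, with adjusted p-values up to 0.0676. The matches describe letters, not bound factors.

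Per kilobase of annotated exon, the mitochondrial mRNAs were the 7 most abundant members. The median level over libraries ran from 441 CPM per kb for mt-Nd6 to 4782 CPM per kb for mt-Co1, the catalytic subunit of complex IV. The highest nuclear members were Atp5b and Atp5a1, the catalytic beta and regulatory alpha subunits of ATP synthase, at 335 and 324 CPM per kb, followed by Cox6b1 at 283 CPM per kb. At the other end stood the tissue-restricted isoforms: Cox6b2 at 1.64, Ndufa4l2 at 1.15, Cox6a2 at 0.752 and Cox8b at 0.0424 CPM per kb. The lengths count all annotated exons of a gene, so genes with long, rarely used exons are placed low.

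Summed over the 81 nuclear members, the median level was lower in diabetic mice in each treatment, by least under vehicle once the 2 libraries were left out. The sums were 8456, 10095 and 14652 CPM (lowest, median and highest of 6) in nondiabetic vehicle mice and 8454, 9263 and 10175 CPM in diabetic vehicle mice. Without replicate 3 the nondiabetic vehicle median was 9381 and the highest 11104 CPM, and the 2 vehicle groups overlapped over nearly all of the diabetic range. Under LXA4 they were 10089, 10328 and 11543 CPM in nondiabetic mice against 7099, 8895 and 14506 CPM in diabetic mice. Without replicate 6, the highest diabetic LXA4 library reached 8975 CPM and the 2 LXA4 groups did not overlap. Under benzo-LXA4 the sums were 9117, 9377 and 10704 CPM in nondiabetic mice and 8161, 8850 and 9355 CPM in diabetic mice, and these overlapped.

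The sums of the 7 mitochondrial mRNAs did not separate the LXA4 groups, although their median under LXA4 was also lower in diabetic mice. Their sums were 4608, 15993 and 20671 CPM in nondiabetic vehicle mice (14070, 16915 and 20671 CPM without replicate 3) and 15212, 17767 and 20820 CPM in diabetic vehicle mice. Under LXA4 they were 14887, 17934 and 20465 CPM against 13495, 15672 and 19064 CPM (median 15470 CPM without replicate 6), and under benzo-LXA4 15419, 16481 and 17600 CPM against 15326, 16802 and 18810 CPM. Each diabetic group overlapped its nondiabetic counterpart, which does not show that the mitochondrial sums were unchanged. The log2 ratio of the mitochondrial to the nuclear sum, over the 34 other libraries, averaged 0.82 ± 0.083 (SD, n = 5), 0.76 ± 0.123 (n = 6) and 0.78 ± 0.144 (n = 6) in nondiabetic mice given vehicle, LXA4 and benzo-LXA4. In diabetic mice it averaged 0.94 ± 0.156 (n = 6), 0.95 ± 0.102 (n = 5) and 0.95 ± 0.134 (n = 6), and the ranges of the states overlapped in each treatment. These ratios were not tested. The plot of summed levels by library shows both sums and their ratio.

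**Figure D1:**
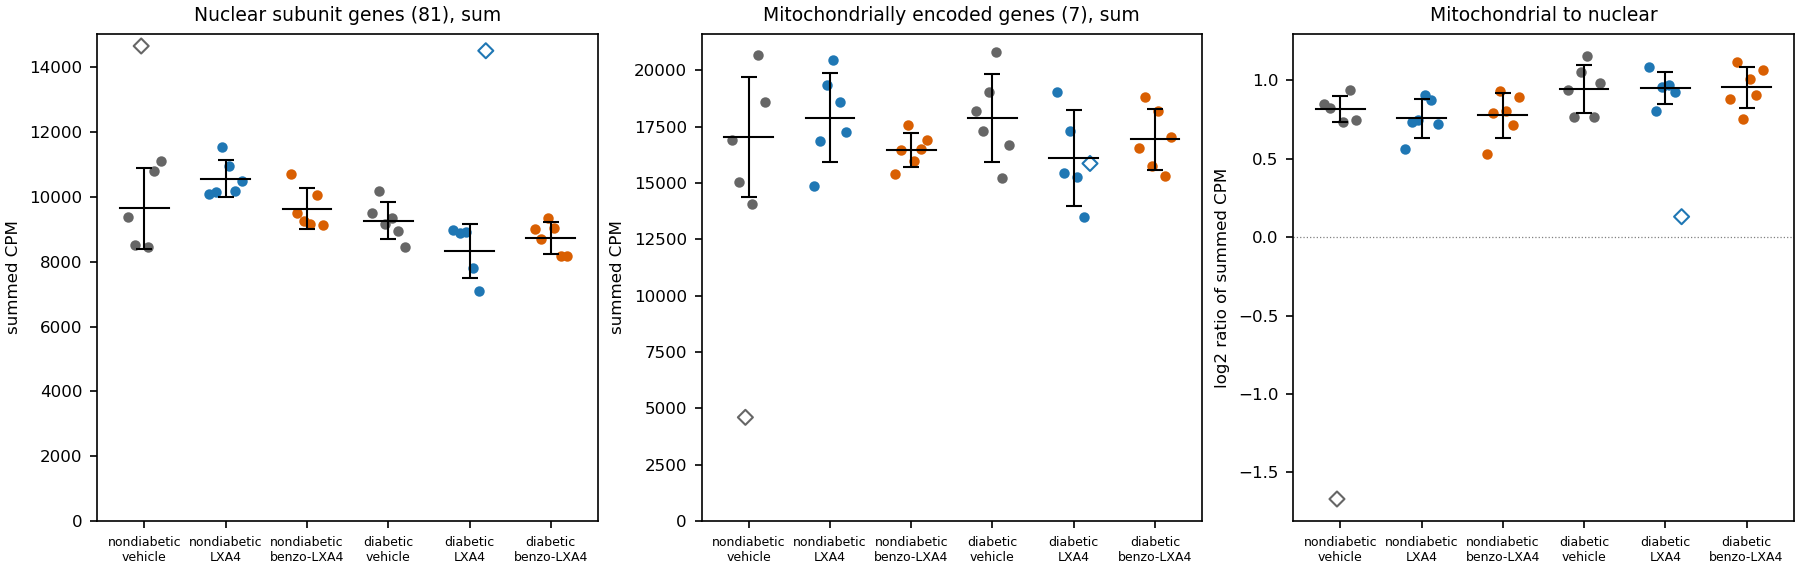
Summed CPM of the 81 nuclear (left) and 7 mitochondrially encoded (middle) members and the log2 ratio of the sums (right) in each library of the 6 groups. Points are libraries, open diamonds are nondiabetic vehicle replicate 3 and diabetic LXA4 replicate 6, and bars are the mean and SD of the other libraries; the nuclear sums of the 5 other diabetic LXA4 libraries (7099 to 8975 CPM) lie below those of all nondiabetic LXA4 libraries (10089 to 11543 CPM).

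Averaged over the 3 treatments, 45 nuclear members were lower and 1 was higher in diabetic than in nondiabetic mice, and of the 7 mitochondrial members 1, mt-Nd6, was higher (edgeR quasi-likelihood test, Benjamini-Hochberg adjusted p under 0.05 over 15726 genes). Of all genes tested, 35.4% were called in this comparison, 16.6% as lower and 18.8% as higher, so the 45 of 81 is read against that share. The nuclear members had a median log2 difference of -0.21, or -13.4%, and 75 of 81 were negative; the 7 mitochondrial members had a median of 0.03 and all genes a median of 0.01. Without the 2 libraries, 70 nuclear members were lower and 1 higher (47.4% of all genes called, 24.9% lower), with a median of -0.19, and mt-Nd6 remained the 1 mitochondrial call. The mitochondrial median was then -0.02. Of the 47 members called with all libraries, 46 were called again without the 2. Setting aside the isoforms Cox6a2 and Cox8b described below, the called nuclear members that were lower spanned a narrow range, from -0.15 for Ndufs3 to -0.38 for Cox7a1.

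Complex I, which oxidizes NADH, had 21 of 36 nuclear members lower and none higher in the average over treatments (32 lower without the 2 libraries), with a median of -0.22. Ndufs3, a subunit of its hydrophilic arm on chromosome 2 (GRCm38, 90894634 to 90904827, minus strand), had the lowest adjusted p of these. Its levels were 55.4, 61.2 and 65.2 CPM (lowest, median and highest) in nondiabetic vehicle mice, 61.8, 63.6 and 64.8 CPM with LXA4 and 56.2, 60.8 and 67.1 CPM with benzo-LXA4. In diabetic mice they were 55.0, 56.0 and 58.8 CPM, 51.2, 55.0 and 57.6 CPM, and 51.1, 54.8 and 58.5 CPM. Each of the 18 diabetic libraries was under the nondiabetic average, and the log2 difference was -0.15 (SE 0.028, adjusted p = 7.91e-05).

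Ndufs8, which carries iron-sulfur clusters on the path to ubiquinone, fell by 0.32 on the log2 scale (SE 0.063, adjusted p = 0.000214), also with each of the 18 under the nondiabetic average. Other subunits of the electron input and transfer modules were also lower: Ndufv3 by -0.28 and Ndufs1, the largest iron-sulfur subunit, by -0.20 (adjusted p = 0.00013 and 0.000359). Ndufv1, which binds NADH and FMN, did not pass with all libraries (-0.16, adjusted p = 0.215). It ran from 144 to 202 CPM in 5 nondiabetic vehicle libraries and reached 353 CPM in replicate 3, and from 122 to 158 CPM in 5 diabetic LXA4 libraries against 339 CPM in replicate 6. Without the 2 it was lower, by -0.18 (adjusted p = 0.0017). Ndufb8 of the membrane arm, at 80.5 and 133 CPM in the 2 libraries and at most 42.2 CPM elsewhere, was called in neither set (-0.03 and -0.14, adjusted p = 0.921 and 0.0589).

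Complex II, succinate dehydrogenase, is entirely nuclear and also works in the tricarboxylic acid cycle. Its 4 members had 3 called lower (4 without the 2 libraries). Sdha, the flavoprotein that oxidizes succinate (chromosome 13, 74322254 to 74350280, minus strand), had 381, 448 and 510 CPM in nondiabetic vehicle mice and 394, 421 and 472 CPM in diabetic vehicle mice. With LXA4 it had 468, 483 and 502 CPM in nondiabetic and 259, 389 and 410 CPM in diabetic mice, with no overlap, and with benzo-LXA4 401, 433 and 507 CPM against 383, 411 and 439 CPM. Averaged over treatments the log2 difference was -0.20 (SE 0.050, adjusted p = 0.00216). The membrane anchors Sdhc and Sdhd differed by -0.28 and -0.22 (adjusted p = 0.00064 and 0.00225). The iron-sulfur subunit Sdhb, at 372 and 307 CPM in the 2 libraries, gave -0.22 with adjusted p = 0.0721, and -0.21 with adjusted p = 0.000395 without them.

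Complex III, which moves electrons from ubiquinol to cytochrome c, had 6 of 9 nuclear members lower (9 without the 2 libraries). Uqcrb, a ubiquinone-binding subunit, had 51.9, 62.6 and 83.4 CPM in nondiabetic and 52.8, 56.7 and 66.8 CPM in diabetic vehicle mice. Its values with LXA4 were 65.1, 68.9 and 78.4 CPM against 11.8, 50.3 and 55.5 CPM, and with benzo-LXA4 57.5, 62.3 and 66.7 CPM against 38.8, 53.6 and 58.5 CPM. The log2 difference over treatments was -0.35 (SE 0.101, adjusted p = 0.00742), and -0.26 without the 2 libraries, one of which held the 11.8 CPM. The core protein Uqcrc2 differed by -0.24 (adjusted p = 0.0347), while Uqcrc1 (-0.15, adjusted p = 0.183) and Cyc1, the heme-bearing cytochrome c1 (-0.00, adjusted p = 0.993), did not pass; without the 2 libraries both were lower, by -0.13 and -0.11 (adjusted p = 0.0274 and 0.0462). Cycs, the mobile carrier cytochrome c, was lower by -0.23 (adjusted p = 0.0174).

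Complex IV, cytochrome c oxidase, had 7 of 14 nuclear members lower and 1, Cox6b2, higher (11 and 1 without the 2 libraries). Cox7c, a small membrane subunit, had the lowest adjusted p of the ubiquitous ones. It had 74.3, 91.8 and 113 CPM in nondiabetic and 72.6, 88.2 and 103 CPM in diabetic vehicle mice, 94.8, 99.0 and 114 CPM against 40.9, 68.2 and 81.6 CPM with LXA4, and 76.9, 90.1 and 97.6 CPM against 67.0, 77.2 and 83.5 CPM with benzo-LXA4. Its log2 difference over treatments was -0.31 (SE 0.067, adjusted p = 0.000549). Cox5a, which binds next to the catalytic core, was lower by -0.20 (adjusted p = 0.0125).

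Complex V had 7 of 17 nuclear members lower and none higher (13 without the 2 libraries), the lowest share among the complexes with all libraries. Atp5b, the catalytic beta subunit (chromosome 10, 128083273 to 128090391, plus strand), had 1269, 1572 and 1714 CPM in nondiabetic and 1319, 1410 and 1537 CPM in diabetic vehicle mice, 1552, 1627 and 1775 CPM against 1054, 1361 and 1465 CPM with LXA4, and 1360, 1457 and 1708 CPM against 1216, 1350 and 1455 CPM with benzo-LXA4. The 18 diabetic libraries were each under the nondiabetic average, and the log2 difference was -0.20 (SE 0.050, adjusted p = 0.00209). Its partner Atp5a1 gave -0.11 (adjusted p = 0.113), and -0.12 with adjusted p = 0.0167 without the 2 libraries. The differences between complexes in these counts were not tested.

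**Figure D2:**
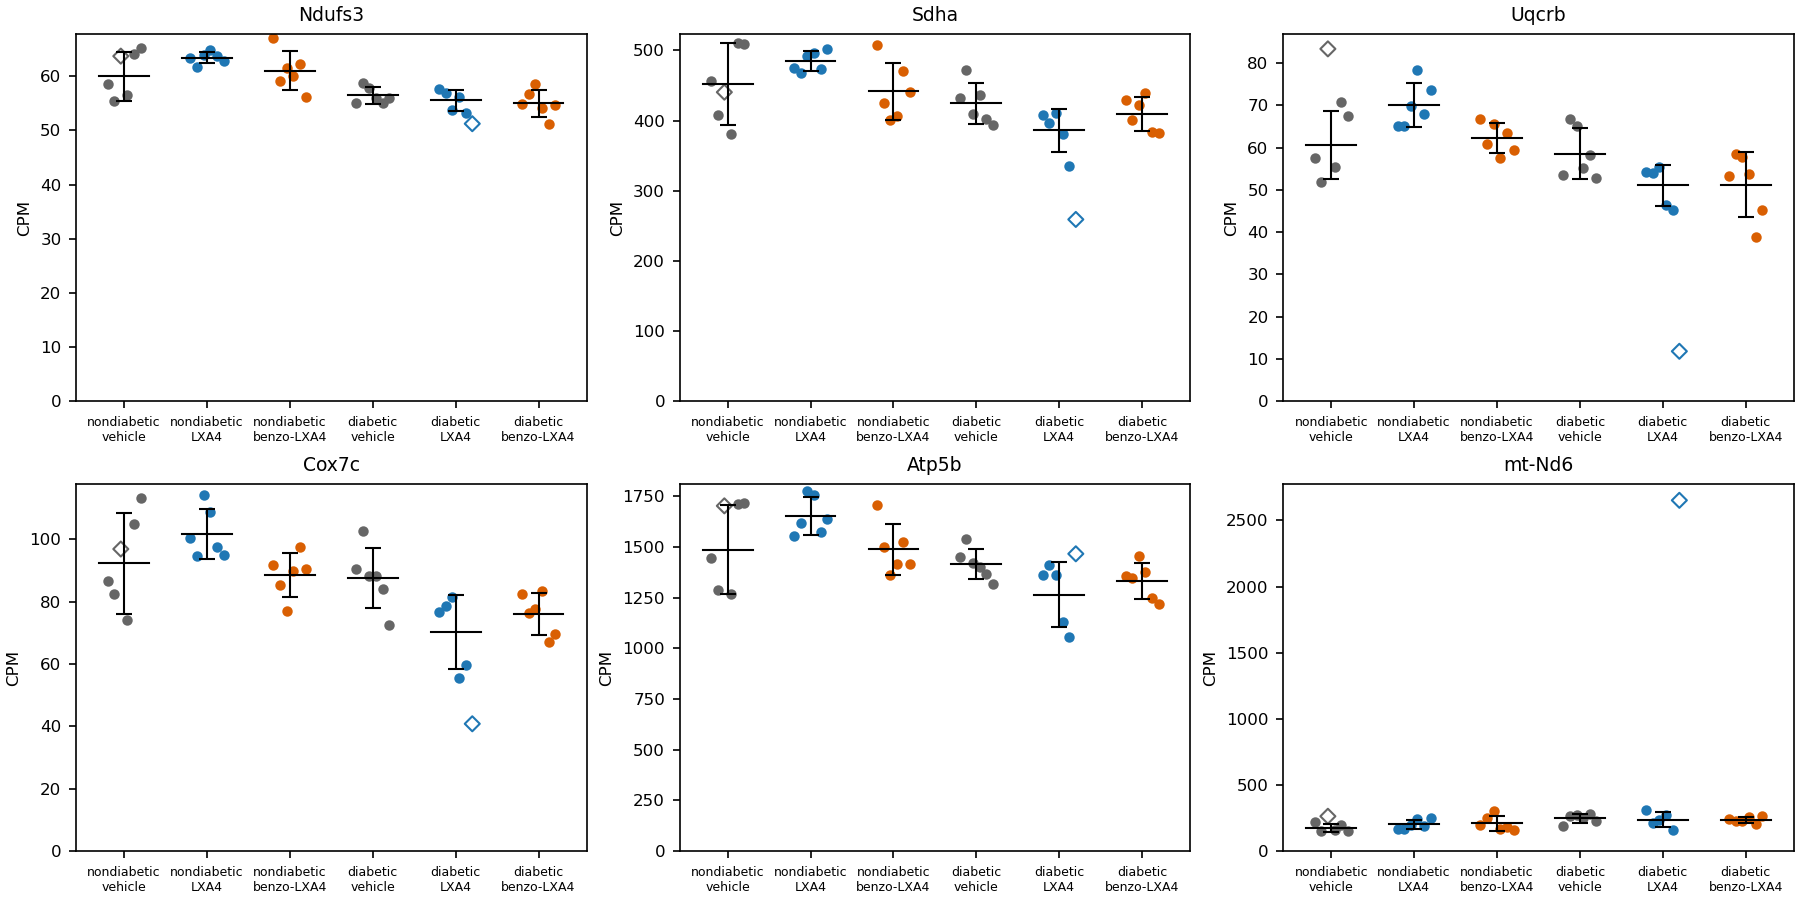
CPM of a member of each complex and of mt-Nd6 in every library, with open diamonds for nondiabetic vehicle replicate 3 and diabetic LXA4 replicate 6 and bars for the mean and SD of the other libraries. Ndufs3, Sdha, Uqcrb, Cox7c and Atp5b lie lower in the diabetic LXA4 group than in the nondiabetic LXA4 group, and mt-Nd6 reaches 2652 CPM in 1 library.

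The comparison was also made within each treatment. Under vehicle, 1 of the 88 members was called, Cox6a2, as lower, where 5.6% of all genes were called, 2.16% as lower. The nuclear median was -0.17 with all libraries and -0.06 without the 2, the change coming with nondiabetic vehicle replicate 3 (-0.07 without it alone). Without the 2 libraries Cox6b2 (0.91, adjusted p = 0.00303) and Ndufb4 (-0.30, adjusted p = 0.0442) were called as well, against 8.89% of all genes (3.8% lower). The 7 mitochondrial members were all positive, with a median of 0.25, which became 0.08 without the 2 libraries.

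Under LXA4, 44 members were lower and 4 higher in diabetic mice, where 12.3% of all genes were called lower and 27.7% in either direction. Fitting only these 2 groups gave 21 lower and none higher, with 2338 of all genes called in either direction. Under every setting tried, 18 of the 48 were called. The nuclear median was -0.33 (-0.34 without the 2 libraries), and the mitochondrial median was also negative, at -0.14 (-0.16 without them). The lowest adjusted p-values were those of Cox7c (-0.63, SE 0.12, adjusted p = 0.000331), Ndufv3 (-0.49, adjusted p = 0.000382), Ndufb11 (-0.48, adjusted p = 0.00114) and Sdha (-0.41, adjusted p = 0.00114). Apart from Cox6a2, the members called lower ran from -0.21 (Ndufs3) to -0.71 (Ndufa4). The Ndufa4 value includes diabetic LXA4 replicate 6, at 19.1 CPM against 95.8 to 168 CPM in the 34 other libraries. The 4 called higher were Cox6a1 (2.17), mt-Nd6 (1.65), Cox6b2 (0.78) and Atp5l (0.48). Without the 2 libraries 71 were lower, against 19.3% of all genes (36.9% in either direction), and Cox6b2 was the 1 still higher; Cox6a1 turned to -0.38 (adjusted p = 0.0128). Diabetic LXA4 replicate 6 held 3950 CPM of Cox6a1 and the 5 other libraries of that group 96.9 to 148 CPM.

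Under benzo-LXA4, 2 members were called, Cox6a2 and Cox8b, both lower, where 4.06% of all genes were called, 1.25% as lower. The nuclear median was -0.15, and 78 of the 81 nuclear members were negative. Without the 2 libraries, neither of which is in these groups, the fitted differences barely moved, their standard errors were smaller (0.067 in place of 0.112 for Ndufb2) and 12 members were called, all lower, against 6% of all genes (12.1% in either direction). Among them were Ndufb2 (-0.26), Ndufs3 (-0.16), Ndufb5 (-0.23), Atp5j (-0.20) and Uqcrb (-0.29). The plot of log2 differences by comparison sets these side by side.

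**Figure D3:**
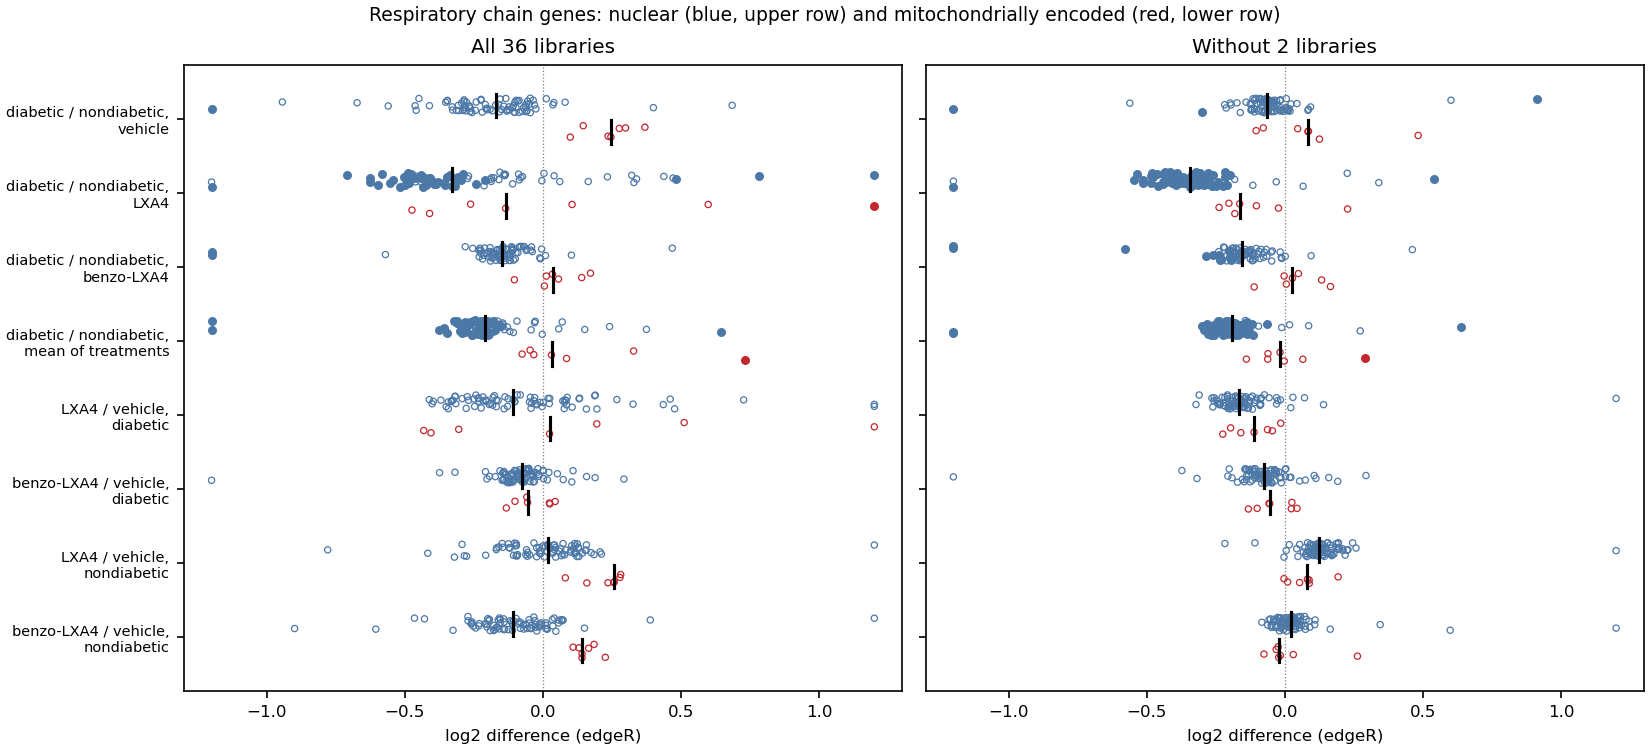
Fitted log2 difference of each member in 8 comparisons with all libraries (left) and without the 2 that stood apart (right). Each point is a gene, filled where adjusted p was under 0.05, black lines are medians, and values beyond 1.2 are drawn at the edge; the nuclear medians of the 3 diabetic against nondiabetic comparisons and of their mean lie at or below -0.06, and those of the mitochondrial genes between -0.16 and 0.25.

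The design also asks whether the compounds change these genes. LXA4 against vehicle in diabetic mice gave no member call (0.356% of all genes were called), and 23 members had an unadjusted p under 0.05. Shares of all genes here are at adjusted p, and none is given for the unadjusted counts. DESeq2 called 1, Cox7c, as lower (221 of all genes called), and voom with quality weights none (172 of all genes). By edgeR Cox7c had a log2 difference of -0.41 (95% interval -0.65 to -0.18, adjusted p = 0.119), and Cox5a and Ndufb11 had -0.32 and -0.29 (adjusted p = 0.187 for each). These values, and the DESeq2 call of Cox7c, include diabetic LXA4 replicate 6. There Cox7c (40.9 CPM), Cox5a (53.8 CPM) and Ndufb11 (42.0 CPM) each lay below all 34 other libraries. Cox6a1 gave 2.33 (adjusted p = 0.121) and mt-Nd6 1.36 (adjusted p = 0.146), values that became -0.22 and -0.06 without the 2 libraries. The nuclear median was -0.11, and -0.16 without the 2 libraries, where 76 of 81 nuclear members were negative and again none was called (0.591% of all genes; 36 members at an unadjusted p under 0.05). Benzo-LXA4 against vehicle in diabetic mice gave no call among members or among all genes (0%), with no member at an unadjusted p under 0.05 and a nuclear median of -0.07; DESeq2 and voom also called no member. Leaving out the 2 libraries, 0.305% of all genes and still no member were called, with 9 members at an unadjusted p under 0.05. For Cox7c it gave -0.20 (95% interval -0.44 to 0.03). The doses of the compounds differ, so their values stand side by side and were not compared.

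In nondiabetic mice neither compound gave a member call, nor a call among all genes (0% for each), by edgeR, and DESeq2 and voom called no member. With LXA4 no member, and with benzo-LXA4 1 member, Cox8b, had an unadjusted p under 0.05. The nuclear median was 0.02 for LXA4 and -0.11 for benzo-LXA4. Without nondiabetic vehicle replicate 3 the LXA4 median became 0.12 and the benzo-LXA4 median turned to 0.02, and without nondiabetic vehicle replicate 2 they were -0.04 and -0.15, so neither direction held. For Ndufs3 the 95% interval of the LXA4 difference was -0.03 to 0.16 and of the benzo-LXA4 difference -0.09 to 0.11.

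The interaction asks whether the difference between diabetic and nondiabetic mice under a compound is unlike that under vehicle. For LXA4 no member was called (0.248% of all genes), with 19 members at an unadjusted p under 0.05 and no call by DESeq2 or voom. The nuclear median of the interaction was -0.13. Without the 2 libraries it was -0.29, and 76 of 81 nuclear and 7 of 7 mitochondrial members were negative. In that fit 53 members had an unadjusted p under 0.05, a count with no share of all genes beside it. No member was called there, where 0.82% of all genes were called at adjusted p under 0.05. The lowest adjusted p-values then were 0.062 for Atp5h, a stalk subunit of ATP synthase (-0.44, from 0.51 with all libraries), and 0.0629 for Ndufv3 (-0.45, from -0.37). The larger number of members called under LXA4 than under vehicle was therefore not a called difference for any single gene. For benzo-LXA4 no member was called (0% of all genes), 1 had an unadjusted p under 0.05, neither DESeq2 nor voom called any, and the nuclear median was 0.04, or -0.10 without the 2 libraries. These comparisons share the vehicle groups.

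Of the mitochondrially encoded members, mt-Nd6 was the 1 called in any comparison. It encodes a complex I subunit and is the only mRNA read from the other strand of mitochondrial DNA (positions 13552 to 14070, minus strand), where its end overlaps that of mt-Nd5 by 14 bases; the libraries were directional, but the strand setting of the counting is not given. It had 153, 178 and 264 CPM in nondiabetic vehicle mice, 167, 193 and 249 CPM with LXA4 and 161, 190 and 307 CPM with benzo-LXA4. In diabetic mice it had 188, 256 and 279 CPM, 160, 255 and 2652 CPM, and 203, 235 and 267 CPM. The groups overlapped in each treatment, while 16 of 18 diabetic libraries exceeded the nondiabetic average. The log2 difference over treatments was 0.73 (SE 0.24, adjusted p = 0.0172), and 0.29 (SE 0.090, adjusted p = 0.00833) without the 2 libraries. With the replicate number as a block it was 0.58 (adjusted p = 0.0521).

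The other 6 mitochondrial mRNAs were not called. Over treatments mt-Nd1 differed by 0.03, mt-Nd2 by -0.05, mt-Co1 by -0.03, mt-Nd4 by 0.09, mt-Nd5 by 0.33 and mt-Cytb by -0.08, with adjusted p-values from 0.105 to 0.924. These values include diabetic LXA4 replicate 6. It held 8960 CPM of mt-Nd5 and 1268 CPM of mt-Nd4, against at most 2726 and 845 CPM in the 34 other libraries. mt-Co1 (positions 5328 to 6872, plus strand) had 1828, 7208 and 9030 CPM in nondiabetic and 7138, 7953 and 9486 CPM in diabetic vehicle mice, 6825, 8164 and 9308 CPM against 281, 7000 and 8283 CPM with LXA4, and 6840, 7246 and 7432 CPM against 6525, 7363 and 8240 CPM with benzo-LXA4. Its log2 difference over treatments was -0.02 without the 2 libraries (adjusted p = 0.818). The share of counts from mitochondrial ribosomal RNA, left after ribosomal RNA depletion, ran from 7.95% to 10.97% in the 5 other nondiabetic vehicle libraries and from 11.1% to 13.2% in diabetic vehicle libraries, without overlap. It overlapped between states in the other treatments, at 8.15% to 12.1% against 8.50% to 12.5% with LXA4 (5 diabetic libraries) and 8.23% to 10.3% against 8.42% to 11.9% with benzo-LXA4. Its part in these results was not tested.

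The 2 libraries that stood apart differed from the rest in the mitochondrial mRNAs, and not in the same way. In nondiabetic vehicle replicate 3, 6 of the 7 lay below all 34 other libraries, by -1.50 (mt-Nd5) to -2.96 (mt-Nd4) on the log2 scale relative to their median, while mt-Nd6 was within range. In diabetic LXA4 replicate 6, mt-Co1 (281 CPM), mt-Cytb (211 CPM) and mt-Nd1 (1358 CPM) lay below all 34, mt-Nd4 (1268 CPM), mt-Nd5 (8960 CPM) and mt-Nd6 (2652 CPM) above all 34, and mt-Nd2 within. Mitochondrial ribosomal RNA took 0.394% of that library's counts, against 7.95% to 13.2% in the 34. Among nuclear members, Cox6a1 was higher by 2.76 on the log2 scale in nondiabetic vehicle replicate 3 and by 4.73 in diabetic LXA4 replicate 6, as far from the median as the mitochondrial extremes of the latter. Of these members, 50 lay above and 7 below all 34 in nondiabetic vehicle replicate 3, and 29 above and 31 below in diabetic LXA4 replicate 6. The share of all genes outside the range of the 34 was not counted, so these numbers do not set the members apart from other genes. The plot of mitochondrial mRNAs in these libraries shows the opposite directions.

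**Figure D4:**
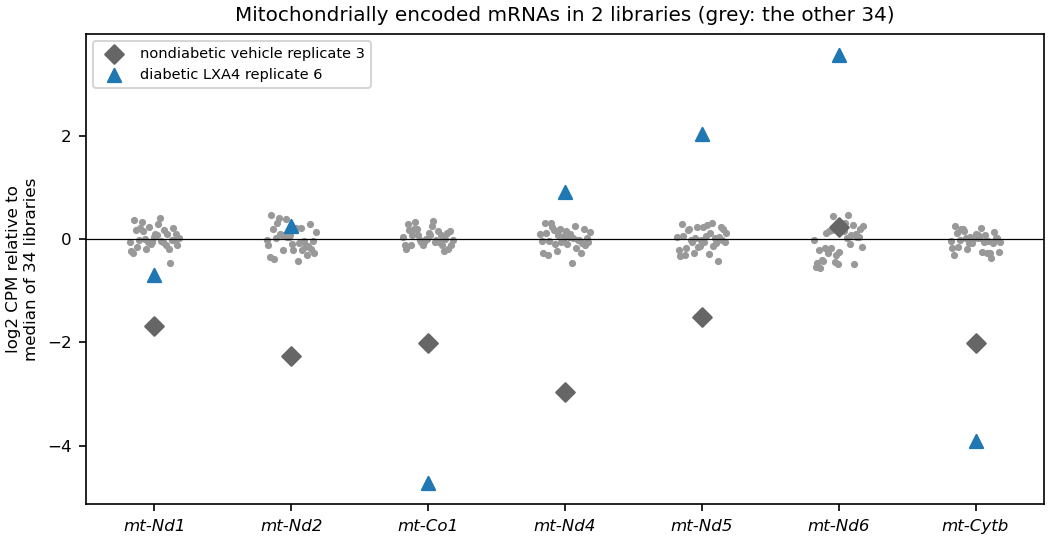
Log2 CPM of each mitochondrial mRNA relative to its median in the 34 other libraries (grey points), for nondiabetic vehicle replicate 3 (diamond) and diabetic LXA4 replicate 6 (triangle). In the latter mt-Co1 is at -4.72 and mt-Nd6 at 3.56; in the former 6 of 7 genes lie between -2.96 and -1.50.

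Several complex IV subunits exist as tissue isoforms, and Cox8b, Cox6a2, Cox6b2 and Cox7a1 had the largest differences of all nuclear members over treatments. Cox6a2, the heart and skeletal muscle form of Cox6a1 (chromosome 7, 128205435 to 128206387, minus strand), was the 1 member called in all 3 treatments. It had 0.275, 1.23 and 2.17 CPM in nondiabetic vehicle mice, 0.586, 1.01 and 1.77 CPM with LXA4 and 0.350, 0.821 and 2.01 CPM with benzo-LXA4. In diabetic mice it had 0.100, 0.298 and 0.437 CPM, 0.164, 0.261 and 1.42 CPM, and 0.225, 0.294 and 0.700 CPM. The log2 differences were -1.99 (SE 0.46, adjusted p = 0.00843), -1.92 (SE 0.47, adjusted p = 0.0036) and -1.64 (SE 0.44, adjusted p = 0.0261), and -1.85 over treatments (SE 0.26, adjusted p = 2.9e-06). The groups overlapped in each treatment, under LXA4 only through diabetic LXA4 replicate 6 (1.42 CPM, against 0.164 to 0.289 CPM in the others of its group). The call under benzo-LXA4 was lost in 6 of 12 fits that left out 1 library each, with adjusted p-values up to 0.0862. Of the other muscle markers only Actn3 was in the table, and Acta1, Ckm, Myh4 and Mylpf were not analysed here, so the part of muscle RNA in the Cox6a2 result was not tested. The ubiquitous form Cox6a1 had 116, 158 and 1008 CPM in nondiabetic and 122, 153 and 175 CPM in diabetic vehicle mice, with a log2 difference over treatments of 0.37 (adjusted p = 0.448) and of -0.15 (adjusted p = 0.0577) without the 2 libraries.

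Cox6b2, known as the testis form of Cox6b1, was the 1 nuclear member called higher over treatments. It had 0.885, 1.52 and 3.32 CPM in nondiabetic vehicle mice, 1.18, 1.51 and 2.01 CPM with LXA4 and 0.955, 1.35 and 2.20 CPM with benzo-LXA4, against 1.77, 2.70 and 3.07 CPM, 1.93, 2.40 and 6.14 CPM, and 1.69, 1.91 and 2.59 CPM in diabetic mice. Each diabetic library exceeded the nondiabetic average (18 of 18), and the log2 difference was 0.65 (SE 0.14, adjusted p = 0.000807; 0.64 without the 2 libraries, adjusted p = 2.32e-05). Cox6b1 gave -0.18 (adjusted p = 0.306), and -0.24 (adjusted p = 0.000163) without the 2 libraries.

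Cox8b and Cox7a1 are heart and muscle forms that brown fat also expresses, and both were highest in a library with high brown fat markers. Cox8b was at 18.6 CPM in nondiabetic benzo-LXA4 replicate 1, 1.47 CPM in replicate 2 and 0 CPM in the other 4, and ran from 0 to 0.0750 CPM in diabetic benzo-LXA4 mice. The fitted log2 difference of -6.91 (adjusted p = 0.0154) rests on replicate 1: without it the adjusted p was 0.386. Over treatments Cox8b gave -2.97 (adjusted p = 0.032), and up to 0.242 when 1 library was left out (nondiabetic vehicle replicate 2). With 0 counts in many libraries these fitted values depend on the prior count and are not bounds. The same library held 122 CPM of Ucp1, 65.6 CPM of Cidea and 74.5 CPM of Plin1, markers of brown fat and adipocytes that were at 5.49 CPM or less in the other 5 libraries of its group. Over treatments 6 of the 7 genes of that list, which holds Cox8b and Cox7a1 too, were lower, and its summed level ran from 13.7 to 598 CPM in nondiabetic and from 12.8 to 21.2 CPM in diabetic benzo-LXA4 mice. Cox7a1 had 4.26, 4.56 and 10.4 CPM against 3.10, 3.85 and 4.69 CPM there, and -0.38 over treatments (SE 0.12, adjusted p = 0.0141; 0.0299 without nondiabetic benzo-LXA4 replicate 1). It was also at 9.04 CPM in nondiabetic vehicle replicate 3, where Ucp1 was at 0 CPM, and at 3.59 CPM in diabetic LXA4 replicate 2, where Ucp1 was at 6.48 CPM. The part of fat in the 2 isoforms was not tested. The ubiquitous forms Cox8a and Cox7a2 differed by -0.26 (adjusted p = 0.0118) and -0.24 (adjusted p = 0.102) over treatments. Ndufa4 differed by -0.36 (adjusted p = 0.0131), while its paralog Ndufa4l2, known for its induction by hypoxia, gave 0.24 (adjusted p = 0.164). These values include diabetic LXA4 replicate 6. That library held 19.1 CPM of Ndufa4, against 95.8 to 168 CPM in the 34 other libraries. Its Ndufa4l2 was at 2.36 CPM, against 0.655 to 2.29 CPM.

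**Figure D5:**
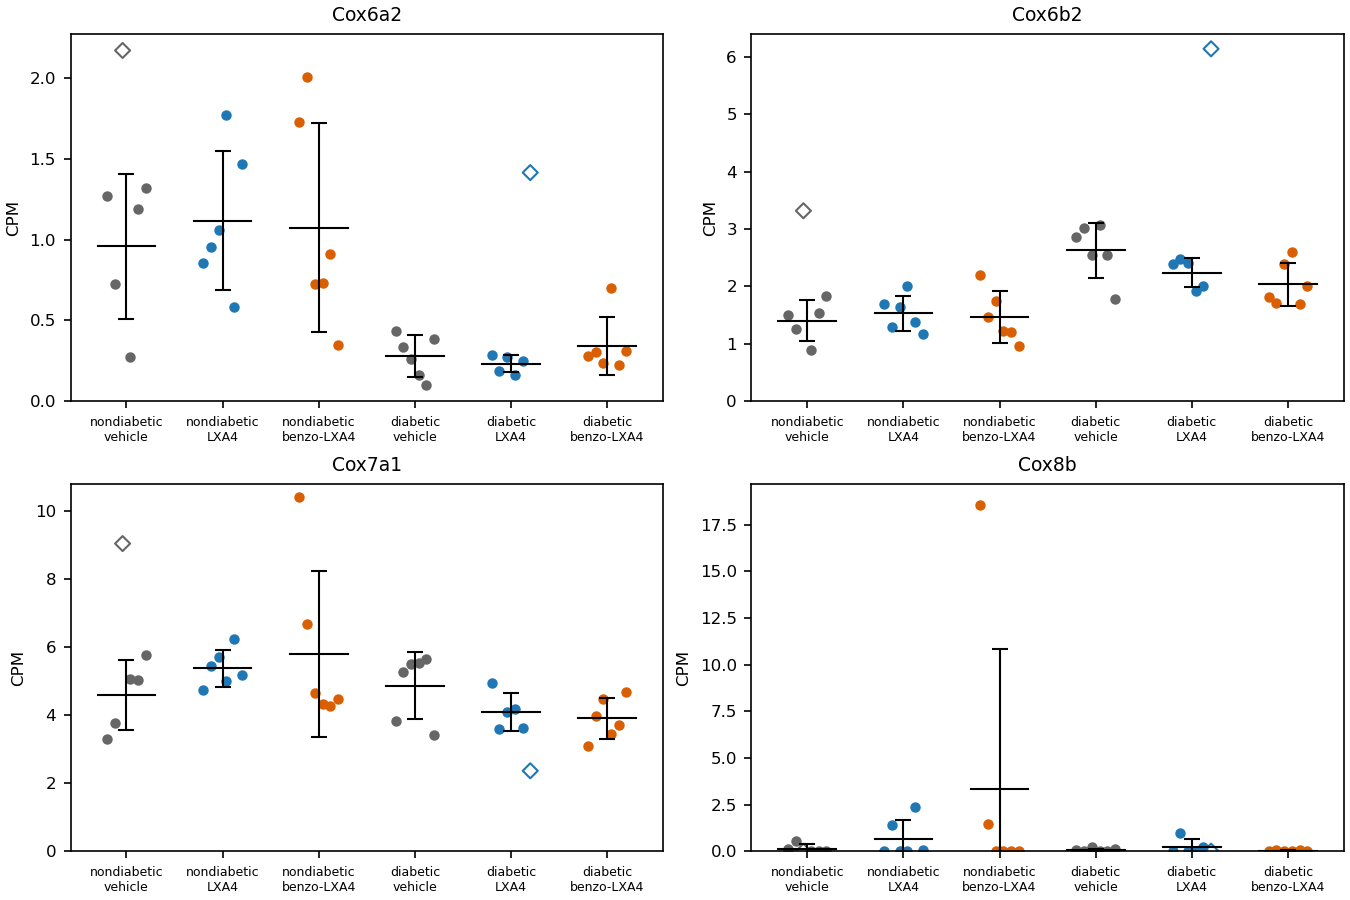
CPM of the tissue isoforms Cox6a2, Cox6b2, Cox7a1 and Cox8b in every library, with open diamonds for the 2 libraries that stood apart and bars for the mean and SD of the others. Cox6a2 lies lower and Cox6b2 higher in the diabetic groups, and Cox8b reaches 18.6 CPM in 1 nondiabetic benzo-LXA4 library.

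Other genes of mitochondrial energy metabolism were counted from lists in the same fit, over treatments. Of 49 assembly factors and translation activators, 22 were lower and 2 higher (median -0.16), among them Tmem126b and Acad9, factors of complex I assembly (-0.39 and -0.27, adjusted p = 2.09e-05 and 0.000168), Bcs1l, which inserts the Rieske protein into complex III (-0.38, adjusted p = 7.42e-05), and Cox19 and Coa3 of complex IV assembly (-0.18 and -0.39, adjusted p = 0.000165 and 0.000766). Of 27 genes of the tricarboxylic acid cycle and pyruvate dehydrogenase, 15 were lower and 1 higher (median -0.18). Pdha1, the catalytic subunit of pyruvate dehydrogenase, gave -0.27 (adjusted p = 2.86e-05) and Idh3g of isocitrate dehydrogenase -0.30 (adjusted p = 0.000158). The 1 higher was Pdk1, a kinase that switches pyruvate dehydrogenase off (0.33, adjusted p = 0.000929).

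Of 36 genes of mitochondrial DNA replication, transcription and RNA processing, 10 were lower and none higher (median -0.10). Tfb2m, an initiation factor of mitochondrial transcription, gave -0.15 (adjusted p = 0.000955), and Tfam, which packages mitochondrial DNA, -0.12 (adjusted p = 0.0428). The polymerase gene Polrmt gave 0.02 (adjusted p = 0.906). Of 12 carriers, porins and the ATP synthase inhibitor, 3 were lower: the porins Vdac1 (-0.26, adjusted p = 0.00134) and Vdac3 (-0.21, adjusted p = 0.00326), and Ucp1, which is also on the brown fat list. Of 18 regulators of mitochondrial biogenesis, 2 were lower and 1 higher (median -0.00): Prkaa2, a catalytic subunit of AMPK (-0.21, adjusted p = 0.00628), Sirt1 (-0.11, adjusted p = 0.042) and the receptor Esrrb (0.42, adjusted p = 0.0118). Ppargc1a, the coactivator of mitochondrial biogenesis, gave 0.03 (adjusted p = 0.802), Nrf1 0.10 (adjusted p = 0.209), Esrra 0.04 (adjusted p = 0.857) and Gabpa, the ETS factor named above, -0.12 (adjusted p = 0.291; -0.23 and adjusted p = 7.56e-06 without the 2 libraries). These counts too are read against the 16.6% of all genes called lower and 18.8% called higher.

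Members with and without each promoter motif had similar medians. Those with an NRF1 match had a median of -0.19 over treatments (10 of 17 called lower) and those without -0.22 (27 of 51 called lower). The medians with and without were -0.21 and -0.20 for the ETS motif, -0.20 and -0.21 for the ERR motif, and -0.21 and -0.21 for the YY1 motif. Called lower were 6 of 16 members with the ETS motif and 31 of 52 without it, 5 of 8 and 32 of 60 for the ERR motif, and 10 of 18 and 27 of 50 for the YY1 motif. Without the 2 libraries these counts were 14 of 17 and 44 of 51 for NRF1, 12 of 16 and 46 of 52 for ETS, 6 of 8 and 52 of 60 for ERR, and 16 of 18 and 42 of 50 for YY1. None of these differences was tested. These are descriptions over members matched to a promoter.

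Markers of the proximal tubule moved in the same direction as the nuclear members. Over treatments 7 of 12 were lower and none higher (median -0.36), with Miox, which breaks down inositol, at -0.72 (adjusted p = 2.26e-06), Slc7a13 at -0.73 (adjusted p = 1.29e-05) and the endocytic receptor Lrp2 at -0.42 (adjusted p = 2.26e-05). Their summed level ran from 17804 to 28954 CPM in nondiabetic vehicle mice and from 12037 to 22742 CPM in diabetic vehicle mice. It ran from 24969 to 28888 against 10567 to 20709 CPM with LXA4, without overlap. The 10567 CPM was that of diabetic LXA4 replicate 6, rich in structural RNA, and the median of that group was 17932 CPM. With benzo-LXA4 the sum ran from 18574 to 25541 against 16908 to 20781 CPM. Of the markers of other cells, 3 of 5 podocyte genes and 2 of 6 leukocyte genes were higher and 4 of 5 erythroid genes lower. None of 6 collecting duct genes was called, and loop and distal tubule (6 genes) and endothelium (4 genes) had 1 call in each direction. All marker counts stand beside 16.6% of all genes called lower and 18.8% called higher over treatments. In whole cortex, fewer cells of a type and less RNA per cell cannot be told apart, and the part of cell composition in the result was not tested.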

How the data were processed

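The submitters sequenced ribosomal RNA-depleted, directional libraries made from 200 ng of kidney cortex RNA, per the labels' protocols. The deposited values are raw read counts per gene; the submitters' processing notes name bcl2fastq (2.17.1.14), STAR, featureCounts and GRCm38, and no source used here gives the other versions, the annotation or the strand setting. Library totals ran from 8896193 to 43305005 counts, the lowest gene total was 370, and no 2 libraries held identical values.

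Counts of all 36 libraries entered one edgeR (4.0.16, R 4.3.3) quasi-likelihood fit with a mean per group, TMM scaling and edgeR's default filter, and p-values were Benjamini-Hochberg adjusted over 15726 genes (threshold 0.05, no minimum fold). The 10 comparisons were diabetic against nondiabetic mice in each treatment and averaged, each compound against vehicle in each state, and the interactions. Fits were tested on simulated data. CPM use the TMM-scaled totals, levels per kilobase the exon lengths of GENCODE M21, and coordinates are from the same annotation of GRCm38. DESeq2 (1.42.0), limma voom with quality weights (3.58.1), other scalings and filters, a replicate block, fits of 2 groups only and fits leaving out libraries were the alternatives.

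Members and lists were chosen with earlier results of these data known. Named were all mitochondrial members, fixed representatives and isoforms, called members (at most 10 of lowest p per comparison), the 3 highest and 3 lowest nuclear log2 values per comparison, and up to 5 called genes of each list. The members named for their promoter windows and those named from fits without the 2 libraries were chosen after their values were seen. The values of 1 member are not reported here.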

Additional observations from a re-analysis of the deposited data

Results flagged for a closer look

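In groups of 6, a library was set aside for a closer look where its gap to the nearest other was over 0.625 of the group's range (Dixon's 95% value). This held for 10 of 60 sets of the named measures, and all 10 were the same 2 libraries. The sets share libraries and genes, so their count cannot be set against a chance rate. In diabetic LXA4 replicate 6 the nuclear sum was 14506 CPM (7099 to 8975 CPM in the others of its group) and the log2 ratio of mitochondrial to nuclear sums 0.13 (0.80 to 1.09). Its mt-Co1 was at 281 CPM (6326 to 8283 CPM) and mt-Cytb at 211 CPM (2456 to 3330 CPM), while mt-Nd4 was at 1268 CPM (561 to 810 CPM), mt-Nd5 at 8960 CPM (1635 to 2726 CPM) and mt-Nd6 at 2652 CPM (160 to 309 CPM). In nondiabetic vehicle replicate 3 the log2 ratio was -1.67 (0.73 to 0.94), mt-Co1 was at 1828 CPM (6492 to 9030 CPM) and mt-Nd4 at 87.1 CPM (562 to 841 CPM). Among 486 sets of a nuclear member in a group, 105 had a library apart, 47 of them diabetic LXA4 replicate 6 and 30 nondiabetic vehicle replicate 3. No such count was made for other genes. The cause was not tested.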

How the results depend on the processing

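Counts of called members, of 88, moved as follows, with the number called of all genes in brackets (15726 were tested in the main fit). Without the 2 libraries rich in structural RNA, 3 were called under vehicle (1399), 12 under benzo-LXA4 (1906) and 72 over treatments (7452). With voom these were 6 (2221), 10 (2568) and 74 (8284). DESeq2 called 2 under vehicle, Cox6a2 and Cox6b2 (1330). For LXA4 against vehicle in diabetic mice it called 1, Cox7c, with adjusted p = 0.0382 (221). A filter at a mean of 5 CPM, which drops Cox6a2 and Cox8b, left 0 under vehicle (442) and 0 under benzo-LXA4 (313). At an unadjusted p under 0.05 there were 6 and 3 members. Fitting only the 2 groups gave 21 under LXA4 (2338) and 12 under benzo-LXA4 (1875). Leaving out 1 library at a time gave 1 to 2 under vehicle, 38 to 51 under LXA4, 0 to 2 under benzo-LXA4 and 43 to 69 over treatments (69 without diabetic LXA4 replicate 6), and 0 elsewhere. Of the members called, 33 of 48 under LXA4, 42 of 47 over treatments, 0 of 2 under benzo-LXA4 and 1 of 1 under vehicle were called in each of these fits. Under LXA4 the log2 difference of Cox6a1 turned to -0.38 without the 2 libraries, -0.29 with voom and -0.37 without diabetic LXA4 replicate 6, and was 2.41 at most in the other fits that left out 1 library. The nuclear median was computed for DESeq2, the other scalings, the replicate block and the fits leaving out libraries. It kept its sign there in all 3 treatments and their mean. No median was taken for voom, the other filters or the fits of 2 groups only. The median of the LXA4 interaction was -0.29 without the 2 libraries, against -0.13. With the replicate block the counts were 1 (805), 48 (4100), 2 (542) and 47 (5443) for vehicle, LXA4, benzo-LXA4 and their mean. In that fit mt-Nd6 was no longer called over treatments. In none of 7 comparisons did every same-numbered pair of libraries correlate above 0.1. Between the vehicle groups the correlations ran from -0.38 to 0.33; for benzo-LXA4 against vehicle in nondiabetic mice they ran from 0.0889 to 0.41, with 5 of 6 over 0.1 and 4 of 6 best with their own number. Libraries with many structural RNA counts have fewer counts left for other genes, and genes near 1 CPM, such as Cox6a2 and Cox8b, rest on few counts.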
